A study of Mus musculus with 15 samples.

Results

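The genes described here encode surface and secreted ligands through which a tumour cell is seen, restrained or spared by lymphocytes and macrophages: Cd274, Pdcd1lg2, Cd276, Cd47, Pvr, Nectin2, Ulbp1, Raet1e, Lgals9 and Cd200. They were chosen by name and by function, each as the exact gene name in both deposited tables, and all 10 were found among the 53689 named records of the first table and the 53618 of the second. The data are RNA-seq counts of mouse lines grown from small cell lung cancer, a high-grade neuroendocrine type of lung tumour. The first table, called the genotype table here, held 4 lung lines of genotype Rb1-/-:Trp53-/-:MYC (RPM) and 3 lung lines of genotype Rb1-/-:Trp53-/-:STAT3-/-:MYC (RPMS). The second, called the site table, held 4 RPMS lines from the lung and 4 RPMS lines from the liver. Every line thus lacked Rb1 and Trp53 and carried MYC, and in the site table both groups also lacked STAT3. The driver of the deletions, the age of the animals and whether a line was clonal are not given in the sources used here. Within a comparison each library was a separate line, so the p-values below measure the spread between lines, and no line number was shared by the groups of a comparison. Line numbers CMV_228, CMV_231 and CMV_252 have a library in each table.

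PD-L1 (Cd274) and PD-L2 (Pdcd1lg2) bind PD-1 on T cells and dampen their response, and B7-H3 (Cd276) is a related member of the B7 family. Natural killer cells are activated when NKG2D binds stress ligands such as MULT-1 (Ulbp1) and RAE-1 epsilon (Raet1e), or when DNAM-1 (Cd226) binds the poliovirus receptor (Pvr) and Nectin-2, which are also bound by the inhibitory receptor TIGIT. Galectin-9 (Lgals9) is a ligand of TIM-3 (Havcr2), CD47 restrains phagocytosis through SIRP-alpha (Sirpa), and CD200 restrains myeloid cells through its receptor Cd200r1.

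In the genotype table, 4 of the 9 members tested fell in the RPMS lines, 0 rose, and Pdcd1lg2 was too low to be tested. Of all 17654 genes tested, 15.7% fell and 14.9% rose. The members that fell were Lgals9, Raet1e, Cd274 and Pvr, and these 4 were also called without RPMS line CMV_252, which stood apart. Leaving out CMV_228 or CMV_231 gave 2 members, and leaving out any RPM line gave 3. In the site table none of the 7 members tested passed edgeR's quasi-likelihood test, although Ulbp1 and Cd274 had higher mean levels in the liver lines. Cd47 and Cd276 had the highest mean levels per length in every RPMS group.

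The promoters of Cd274 and Lgals9 are shown first, since both genes fell and these were the only members of the 9 matched in the RefSeq promoter table (GRCm38.p6) whose windows held the interferon response core GAAANNGAA. Each window runs 5′ to 3′ from 250 bases before the start site to 50 bases after it, and the capitals mark the matches, all of which lie on the opposite strand. The Cd274 window is chr19:29367188-29367487 on the plus strand, and the Lgals9 window is chr11:78984875-78985174 on the minus strand.
Cd274: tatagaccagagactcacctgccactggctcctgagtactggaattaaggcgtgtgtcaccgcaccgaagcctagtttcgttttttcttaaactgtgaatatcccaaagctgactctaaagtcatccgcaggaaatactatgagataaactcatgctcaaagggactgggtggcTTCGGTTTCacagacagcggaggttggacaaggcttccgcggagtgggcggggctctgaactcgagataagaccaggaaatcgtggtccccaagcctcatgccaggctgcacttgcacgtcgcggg
Lgals9: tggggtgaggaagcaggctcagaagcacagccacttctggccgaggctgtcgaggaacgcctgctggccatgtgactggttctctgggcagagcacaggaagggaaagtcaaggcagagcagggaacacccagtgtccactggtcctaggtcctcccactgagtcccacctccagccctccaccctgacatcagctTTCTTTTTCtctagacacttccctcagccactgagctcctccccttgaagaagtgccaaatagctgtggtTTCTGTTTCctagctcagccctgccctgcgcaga
The Cd274 match began 76 bases before the start site (position -76). The Lgals9 matches began at position -54 and at position 17. That motif, searched on both strands, was present in 8.56% of all 32851 promoter windows. The STAT motif TTCNNNGAA, which reads the same on both strands, was in 8.3% of all windows and in the windows of 0 members. Pvr was not matched in the promoter table. A match or its absence in these windows describes letters and not binding.

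The libraries were checked before the members were read. Total counts ran from 25344949 to 31345631 per library in the genotype table and from 9453715 (liver line CMV_344) to 18451248 in the site table, and 3 counts equalled 0.0907 to 0.120 CPM and 0.160 to 0.292 CPM. CPM denotes counts scaled to library size, here with TMM factors that adjust for composition. Stat3, the deleted gene, was at 179.4, 194.9, 159.6 and 208.8 CPM in the RPM lines and at 16.3, 19.0 and 7.83 CPM in the RPMS lines of the genotype table. In the site table it was at 11.2 to 28.5 CPM. The labels call every line lung epithelium. Nkx2-1, the lung lineage factor, had a mean of 51.6 CPM in the RPM lines and 203.1 CPM in the RPMS lines, while Epcam was at 1.90 and 7.89 CPM; neither passed the test. Of 13 lung epithelium markers tested, 0 rose, 1 fell (Napsa, from 18.8 to 0.114 CPM) and 12 did not pass, with a median log2 difference of -1.60.

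Markers of other cell types separated the genotypes. The summed level of 28 leukocyte markers was 17580, 12380, 3768 and 6178 CPM in the RPM lines CMV_426, CMV_427, CMV_428 and CMV_429, and 6.60, 12.0 and 135.2 CPM in the RPMS lines CMV_228, CMV_231 and CMV_252. Lyz2 alone held 123.6 CPM of the sum in CMV_252. Of the 17 leukocyte markers tested, 15 fell in the RPMS lines. The macrophage genes Cybb, C1qc, C1qb and Adgre1 had means of 765.7, 419.1, 410.5 and 303.8 CPM in the RPM lines and 0 counts in every RPMS line of that table. The T and natural killer cell markers Cd3e, Cd8a, Ncr1 and Nkg7 were at 0 in all 7 libraries. Cd4, which was not tested, had 39 counts over the RPM lines and 3 over the RPMS lines. Over the list 7 markers were at 0 in all RPM lines and 19 in all RPMS lines. Fibroblast markers summed to 116.3 to 1040 CPM in the RPM lines and 7.16 to 17.0 CPM in the RPMS lines, 7 of the 10 tested fell and 1, Thy1, rose from 0.0579 to 5.05 CPM; Thy1 is named after its value was seen. Leaving out a line gave 3 (without CMV_228 or CMV_231) to 8 fibroblast markers that fell, and 4 without CMV_426, CMV_428, CMV_429 or CMV_252. Neuroendocrine markers moved the other way: 14 of 17 tested rose, and their sum was 15.2 to 82.5 CPM in the RPM lines against 5037, 4864 and 1688 CPM in the RPMS lines. That count was 8 without CMV_228 or CMV_231 and 10 to 17 without any other line. In such bulk libraries fewer cells of a type and less RNA per cell cannot be told apart. The part of these markers in the members' differences was not tested.

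**Figure D1:**
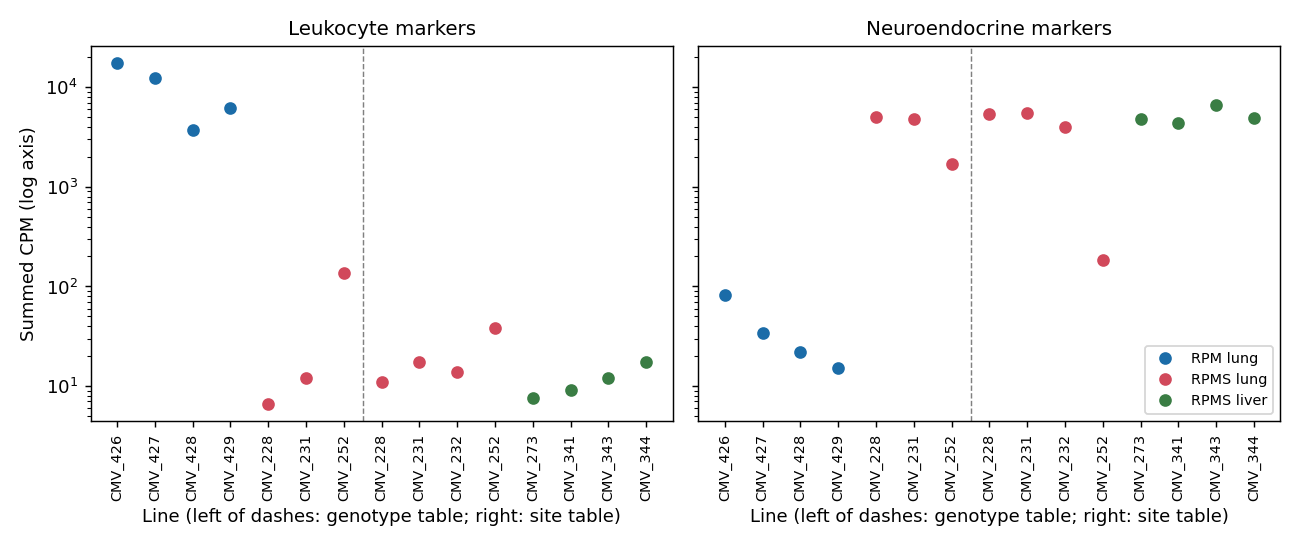
Summed CPM (log axis) of the leukocyte markers (left) and of the neuroendocrine markers (right) in each of the 15 libraries, 1 point per library. RPM lines have the highest leukocyte sums (3768 to 17580 CPM) and the lowest neuroendocrine sums, and CMV_252 of the site table (184.8 CPM) lies below the other RPMS libraries for neuroendocrine markers.

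Line CMV_252 stood apart from the other RPMS lung lines in both tables. In the site table its neuroendocrine sum was 184.8 CPM. The other lung lines had 3955 to 5556 CPM and the liver lines 4429 to 6664 CPM. Its fibroblast sum was 210.8 CPM, against 1.60 to 2.06 CPM in the other lung lines. The liver lines had fibroblast sums of 3.25 to 216.5 CPM, and the highest, CMV_341, lay above CMV_252. The members' differences are also given without CMV_252. Whether its libraries in both tables came from the same line was not settled by the data. Leukocyte sums in the site table were 10.9 to 38.6 CPM in the lung lines and 7.54 to 17.6 CPM in the liver lines.

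Among the T cell ligands, Cd274 fell in the RPMS lines and Cd276 did not pass the test. Cd274 (chr19:29367455-29388095, plus strand, GRCm38) was at 55.5, 49.6, 12.4 and 17.6 CPM in the RPM lines in the order CMV_426 to CMV_429, while RPMS lines had 0.553, 3.17 and 1.09 CPM (CMV_228, CMV_231 and CMV_252). The groups did not overlap. The means were 33.7 ± 21.9 (SD, n = 4) and 1.60 ± 1.38 CPM (SD, n = 3), and Cd274 fell by 4.39 on the log2 scale (SE 0.90, 95% interval -6.52 to -2.26). This is a 21.0-fold lower level with an adjusted p of 0.0124 in edgeR's quasi-likelihood test, adjusted by Benjamini-Hochberg over 17654 genes. Without CMV_252 the difference was -4.19 (adjusted p = 0.0334).

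Pdcd1lg2 (chr19:29410919-29471161), the neighbour of Cd274, was all but missing. It had 9 and 11 counts in CMV_426 and CMV_427 (0.353 and 0.412 CPM) and 0 counts in CMV_428, CMV_429 and the 3 RPMS lines. Cd276 (chr9:58524298-58555437, minus strand) was at 56.2, 47.5, 25.2 and 50.3 CPM in the RPM lines and at 89.96, 71.5 and 67.1 CPM in the RPMS lines. All RPMS lines lay above all RPM lines. The log2 difference was 0.77 (SE 0.29, 95% interval 0.07 to 1.46) and it did not pass the test (adjusted p = 0.0903). Without CMV_252 it was 0.84. Cd274, Cd276, Pvr, Raet1e and Lgals9 were the 5 tested members whose groups did not overlap, which held for 43% of all genes tested.

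Lgals9 (chr11:78962974-78984946, minus strand), the TIM-3 ligand, had the largest log2 difference of the 9 members tested. It was at 251.7, 131.7, 104.5 and 340.3 CPM in the RPM lines and at 0.491, 1.01 and 3.69 CPM in RPMS lines CMV_228, CMV_231 and CMV_252. The lowest RPM line was far above the highest RPMS line. Lgals9 fell by 6.90 on the log2 scale (SE 0.96, 95% interval -9.17 to -4.62), a 119.2-fold lower level (adjusted p = 0.00386). Without CMV_252 the difference was -8.11 (adjusted p = 0.00355, edgeR).

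Of the NKG2D ligands, Raet1e fell and Ulbp1 did not pass. Raet1e (chr10:22158569-22374139, plus strand) was at 5.68, 6.06, 3.29 and 3.05 CPM in the RPM lines. It had 0 counts in RPMS lines CMV_228 and CMV_231 and was at 0.393 CPM in CMV_252. Raet1e fell by 5.06 on the log2 scale (SE 1.46, adjusted p = 0.0382), but this call was lost when any single line other than CMV_252 was left out: the adjusted p was 0.0561 to 0.0688 without an RPM line, and 0.0934 and 0.0911 without RPMS lines CMV_228 and CMV_231. Without CMV_252 the fitted difference was -9.98 (adjusted p = 0.00388, edgeR). The remaining RPMS lines had 0 counts, so the size of that difference is not measured by the counts. The exons of Raet1e overlap those of Raet1d and H60b on the same strand, so its counts are uncertain.

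Ulbp1 (chr10:7440362-7473638, minus strand) was at 60.6, 18.4, 31.9 and 16.4 CPM in the RPM lines and at 36.9, 27.3 and 16.5 CPM in the RPMS lines. The ranges overlapped, and the log2 difference was -0.24 (95% interval -1.50 to 1.00, adjusted p = 0.759). Without CMV_252 it was 0.00234.

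Of the ligands shared by DNAM-1 and TIGIT, Pvr fell and Nectin2 did not pass. Pvr (chr7:19903578-19921160, minus strand) was at 58.9, 181.2, 43.9 and 58.8 CPM in the RPM lines and at 3.16, 2.16 and 14.1 CPM in the RPMS lines. The groups did not overlap, CMV_427 was above the other RPM lines, and CMV_252 was the highest RPMS line. Pvr fell by 3.72 on the log2 scale (SE 0.91, 95% interval -5.87 to -1.58, adjusted p = 0.0222). The call was lost without RPMS line CMV_228 (adjusted p = 0.0807) or CMV_231 (adjusted p = 0.0657), and without CMV_252 the difference was -5.02 (adjusted p = 0.00940).

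Nectin2 (chr7:19716644-19750483, minus strand) was at 19.9, 51.7, 17.3 and 29.6 CPM in the RPM lines and at 27.8, 28.9 and 9.94 CPM in the RPMS lines. The ranges overlapped and the log2 difference was -0.42 (95% interval -1.66 to 0.82, adjusted p = 0.586). Without CMV_252 it was -0.07.

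Neither of the ligands read by macrophages and other myeloid cells passed the test. Cd47 (chr16:49800533-49915010, plus strand) was at 91.3, 73.4, 140.8 and 152.1 CPM in the RPM lines and at 160.8, 225.0 and 28.8 CPM in the RPMS lines. CMV_252 was the lowest of the 7 lines, and the other RPMS lines were above all RPM lines. The log2 difference was 0.27 (95% interval -1.21 to 1.76, adjusted p = 0.774), and it was 0.75 without CMV_252 (adjusted p = 0.136). Cd200 (chr16:45382135-45409053, minus strand) was at 1.96, 0, 6.74 and 0.396 CPM in the RPM lines and at 34.7, 24.7 and 0.302 CPM in the RPMS lines. CMV_228 and CMV_231 lay above every RPM line and CMV_252 within the RPM range. The log2 difference was 3.13 (95% interval -1.14 to 7.39, adjusted p = 0.232), and 3.70 without CMV_252 (adjusted p = 0.125).

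**Figure D2:**
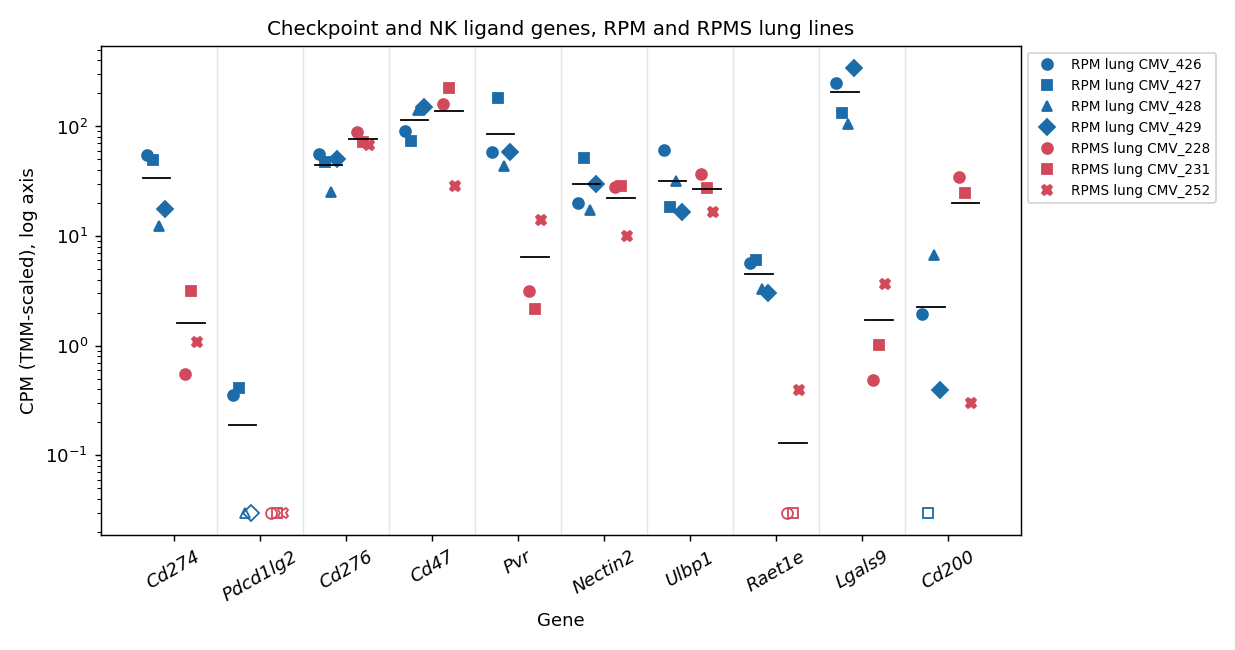
CPM (log axis) of the 10 genes in each RPM (blue, n = 4) and RPMS (red, n = 3) lung line of the genotype table, 1 symbol per line, with black bars at group means and open symbols at the foot of the axis for 0 counts. Cd274, Pvr, Raet1e and Lgals9 have every RPMS line below every RPM line, and CMV_252 (red cross) is the lowest RPMS line for Cd47, Nectin2, Ulbp1 and Cd200.

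The other genes of these pathways were read from lists. Of 17 further B7 family and T cell ligand genes in the table, 10 were tested, 8 fell and 0 rose. Lgals3, which encodes galectin-3, went from 948.9 to 0.208 CPM. Cd48 and the CD28 ligands Cd86 and Cd80 had means of 75.1, 39.1 and 6.06 CPM in the RPM lines and 0 counts in the RPMS lines. Against a floor of 3 counts per library, they were at least 789-fold, 411-fold and 63.7-fold lower. Of 15 further ligands of natural killer cell receptors, 11 were tested, 4 fell and 1 rose. Raet1d, another RAE-1 gene, went from 7.89 to 0.278 CPM (log2 difference -4.80, adjusted p = 0.00864), and H2-T23, which encodes the NKG2A ligand Qa-1, from 73.3 to 5.52 CPM. Clec2d was at least 89.6-fold lower than its 8.53 CPM in the RPM lines. Nectin1 rose from 4.63 to 21.7 CPM (log2 difference 2.23, adjusted p = 0.0117), a call lost without CMV_228 (adjusted p = 0.0503).

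Of 9 phagocytosis genes tested, 5 fell and 1, Cd24a, rose from 161.1 to 702.5 CPM. B2m, the light chain of class I molecules, went from 1085 to 10.6 CPM, and Mfge8, a bridging protein in the uptake of dying cells, from 113.3 to 9.78 CPM. Slamf7 and Sirpb1a had 57.6 and 6.99 CPM in the RPM lines and 0 counts in the RPMS lines, at least 605-fold and 73.4-fold lower. Of the receptors for these ligands, 6 of 18 were tested, 5 fell and 1, Lag3, rose from 0.277 to 3.20 CPM. Lag3 had only 28 counts over the RPM lines, and its adjusted p was 0.0450 (edgeR). Cd24a and Lag3 are named after their values were seen. Cd200r1 was at 28.3 CPM in the RPM lines and 0 counts in the RPMS lines, at least 298-fold lower. Havcr2 went from 33.8 to 0.0529 CPM, and Cd244 was at least 13.6-fold lower than 1.29 CPM. Cd28 had 10624 counts over the RPM lines and 3 over the RPMS lines, a ratio with a counting interval of 6.14e-05 to 0.00087. Pdcd1, Ctla4, Cd226 and Klrk1 were at 0 in all 7 libraries. Tigit, which was not tested, had 243 counts over the RPM lines (0 to 6.78 CPM) and 0 over the RPMS lines. Slamf7, Cd200r1 and Havcr2 are expressed by leukocytes. Whether their fall and that of the leukocyte markers have the same cause was not tested.

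Among 25 regulators of PD-L1, all of them tested, 13 fell, 0 rose and 12 did not pass. The transcription factors Irf1 and Nfkb1 went from 40.0 to 5.71 CPM and from 109.2 to 17.7 CPM, and the glycosyltransferase B4galt1 from 167.9 to 17.8 CPM. Myc, counted under the mouse gene's name, went from 20.8 to 1.82 CPM. In the site table it was at 17.3 to 75.7 CPM in the RPMS lung lines, so its low RPMS level was not seen there. The call of Irf1 was lost without CMV_228 (adjusted p = 0.0721) and that of Myc without CMV_231 (adjusted p = 0.0603).

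The median log2 difference over the 9 members tested was -0.42, beside -0.01 over all genes tested. Levels per kilobase of exon put the members in order. In the RPM lines Lgals9 was first at 96.9 ± 51.2 CPM per kb (SD, n = 4), clear of Cd47 at 18.2 ± 6.06. Pvr, Cd276, Cd274, Nectin2, Ulbp1, Raet1e, Cd200 and Pdcd1lg2 followed at 14.0, 12.2, 9.31, 8.48, 4.74, 2.09, 0.684 and 0.0975 CPM per kb. From Cd47 downward, each neighbour in this order overlapped the next. In the RPMS lines of the same table Cd47 (22.0 ± 15.9) and Cd276 (20.8 ± 3.32 CPM per kb, SD, n = 3) were first and overlapped. Cd276 was clear of Nectin2 at 6.36, and Ulbp1 at 3.996 was clear of Pvr at 1.06 CPM per kb. Lgals9 (0.810), Cd274 (0.443) and Raet1e (0.0606) came after Pvr, each overlapping its neighbour.

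The comparison of RPMS liver with RPMS lung lines asks about the site of origin without a change of genotype. Across 14441 genes edgeR called 0 (0%), 650 (4.5%) had an unadjusted p under 0.05, and the lowest adjusted p was 0.0857. DESeq2 called 52. The groups did not overlap for 2.56% of genes and for 0 members.

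Cd274 was at 0.621, 1.74, 3.15 and 0.538 CPM in lung lines CMV_228, CMV_231, CMV_232 and CMV_252, and at 3.04, 1.12, 12.1 and 12.2 CPM in liver lines CMV_273, CMV_341, CMV_343 and CMV_344. CMV_343 and CMV_344 lay above all lung lines, and CMV_273 and CMV_341 lay within the lung range. The log2 difference was 2.22 (95% interval 0.17 to 4.27, unadjusted p = 0.0369, adjusted p = 0.946, edgeR). Both of those liver lines lay below the lowest RPM line of the genotype table (12.4 CPM), a comparison across tables that were not scaled together. Pdcd1lg2 had 2 counts in CMV_228, 2 in CMV_344 and 0 in the others.

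Cd276 was at 42.7, 33.3, 121.3 and 16.2 CPM in the lung lines and at 36.1, 33.0, 29.1 and 50.3 CPM in the liver lines. The lung lines spread over the whole range of the liver lines, with CMV_232 highest and CMV_252 lowest. The log2 difference was -0.52 (95% interval -1.78 to 0.73, adjusted p = 0.950), it was 0.26 without CMV_232, and -0.82 without CMV_252. Lgals9 was at 0.0565, 0.326, 0.572 and 13.4 CPM in the lung lines and at 0.163, 0.321, 1.76 and 0.779 CPM in the liver lines. It did not pass the filter on low counts, and CMV_252 held most of its lung signal.

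Ulbp1 was at 1.92, 1.52, 0.0572 and 1.23 CPM in the lung lines and at 1.09, 5.19, 50.9 and 32.0 CPM in the liver lines. CMV_341, CMV_343 and CMV_344 lay above all lung lines, and CMV_273 lay within their range. The log2 difference was 4.23 (SE 1.30, 95% interval 1.27 to 7.19, unadjusted p = 0.0106). It did not pass edgeR's adjustment (adjusted p = 0.946), while DESeq2 gave an adjusted p of 0.0365. Raet1e was at 0.113, 0.0543, 0.114 and 1.92 CPM in the lung lines and at 1.52, 0, 0.266 and 0.195 CPM in the liver lines, and was not tested.

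Pvr was at 5.25, 1.84, 4.01 and 43.3 CPM in the lung lines and at 1.57, 2.14, 7.02 and 13.1 CPM in the liver lines. The log2 difference of -1.19 (95% interval -3.66 to 1.28, adjusted p = 0.946) turned to 0.71 without CMV_252. Nectin2 was at 16.9, 20.7, 20.7 and 45.5 CPM in the lung lines and at 11.8, 15.7, 19.6 and 27.1 CPM in the liver lines (log2 difference -0.49, 95% interval -1.41 to 0.44, adjusted p = 0.946). It was -0.06 without CMV_252. Both genes were highest in CMV_252, and their other lung values lay among those of the liver lines.

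Cd47 was at 149.2, 204.5, 98.2 and 94.0 CPM in the lung lines and at 89.4, 159.7, 273.2 and 112.9 CPM in the liver lines (log2 difference 0.22, 95% interval -0.69 to 1.12, adjusted p = 0.973). Cd200 was at 14.4, 11.3, 2.35 and 0.231 CPM in the lung lines and at 5.04, 30.6, 38.2 and 18.0 CPM in the liver lines. For Cd200, 3 of the 4 liver lines lay above all lung lines. Its log2 difference was 1.70 (95% interval -0.69 to 4.09, adjusted p = 0.946). Without CMV_252 the differences were 1.97 for Cd274, 4.28 for Ulbp1, 0.09 for Cd47 and 1.31 for Cd200, and none passed. The median log2 difference over the 7 members tested was 0.22, beside -0.02 over all genes tested.

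**Figure D3:**
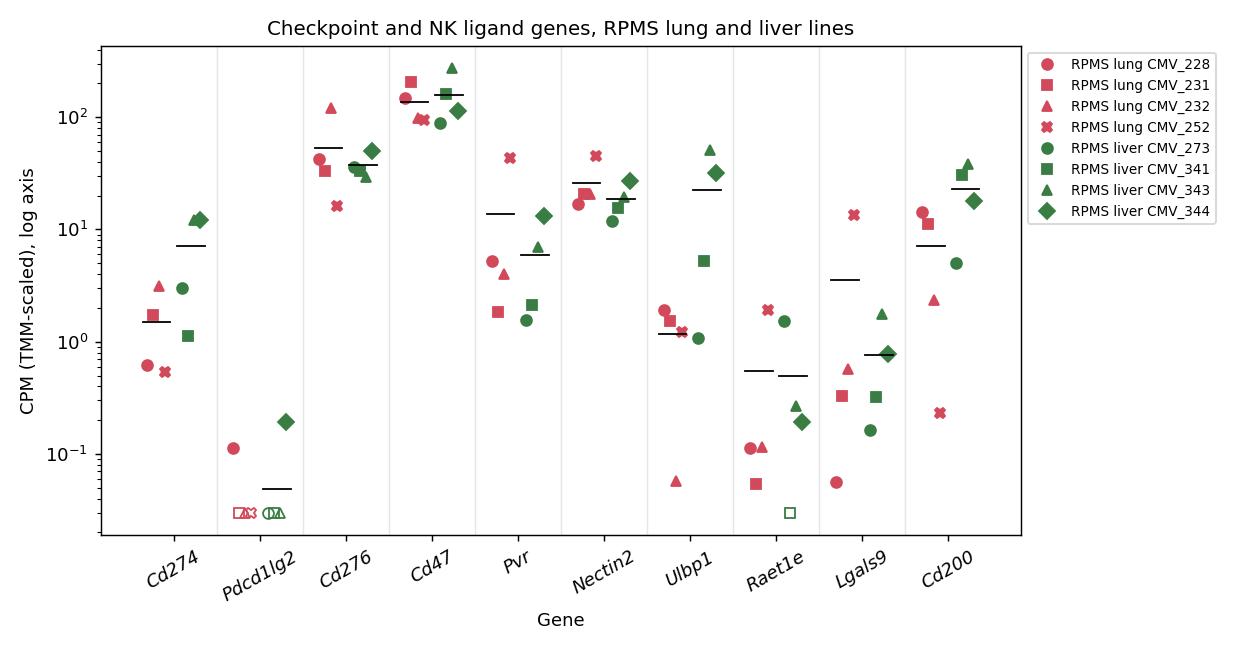
CPM (log axis) of the 10 genes in each RPMS lung (red, n = 4) and RPMS liver (green, n = 4) line of the site table, 1 symbol per line, with black bars at group means above the foot of the axis and open symbols at its foot for 0 counts. The liver lines CMV_343 and CMV_344 are the highest for Ulbp1 (50.9 and 32.0 CPM) and Cd274, and the lung line CMV_252 (red cross) is the highest for Pvr, Nectin2, Raet1e and Lgals9.

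Per kilobase, Cd47 (21.8 ± 8.25) and Cd276 (14.6 ± 12.7 CPM per kb, SD, n = 4) were again first in the lung lines of the site table, and every neighbour in the order overlapped the next. Ulbp1, at 0.176 CPM per kb, was ninth of the 10. In the liver lines Cd47 (25.3 ± 13.0) was clear of Cd276 (10.2 ± 2.52 CPM per kb), followed by Cd200 at 6.92, Nectin2 at 5.30, Ulbp1 at 3.31 and Cd274 at 1.96. In the other lists, 0 genes passed in the site comparison, among them 25 regulators of PD-L1 and 9 further ligands of natural killer cell receptors that were tested.

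**Figure D4:**
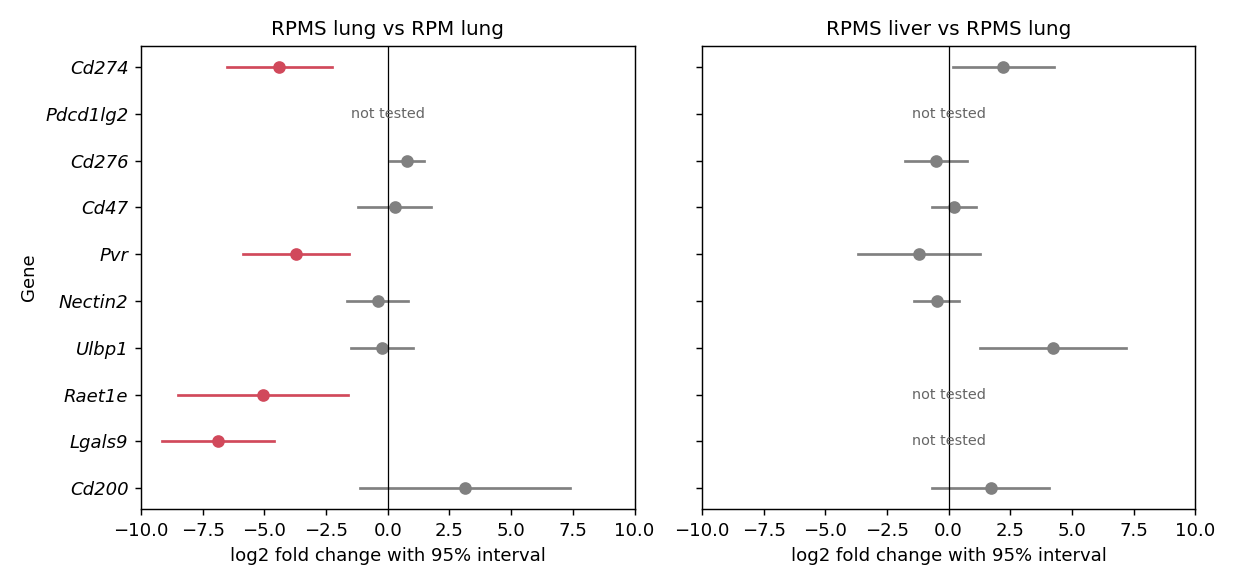
Log2 fold change (x axis) of each gene with its 95% interval, RPMS lung against RPM lung (left) and RPMS liver against RPMS lung (right), from edgeR's quasi-likelihood fits. Red marks an adjusted p under 0.05, which only Cd274, Pvr, Raet1e and Lgals9 reached, all on the left and all below 0; genes under the filter on low counts are written as not tested.

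The RPMS lung lines numbered CMV_228, CMV_231 and CMV_252 appear in both tables, with the doubt about CMV_252 given above. Ulbp1 was at 36.9, 27.3 and 16.5 CPM in the genotype table and at 1.92, 1.52 and 1.23 CPM in the site table, log2 differences of -4.18, -4.06 and -3.62. A difference at least as low as -3.62 in all 3 lines was found for 1068 of 15805 genes (6.76%). With their genotype-table values, these lines lay above the liver lines CMV_273 and CMV_341 of the site table. The cause was not tested. Cd276 was also lower in the site table in all 3 lines (-1.07, -1.10 and -2.04). Cd47 differed by -0.11 and -0.14 in CMV_228 and CMV_231 and by 1.71 in CMV_252.

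In the libraries labelled CMV_252, Pvr was at 14.1 CPM in the genotype table and 43.3 in the site table, Nectin2 at 9.94 and 45.5, Lgals9 at 3.69 and 13.4 and Raet1e at 0.393 and 1.92 CPM. Their neuroendocrine sums were 1688 and 184.8 CPM. In CMV_228 and CMV_231 the Nectin2 and Lgals9 levels were lower in the site table. In both tables CMV_252 was the highest RPMS lung line for Pvr, Raet1e and Lgals9 and the lowest for Cd47 and Cd200.

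**Figure D5:**
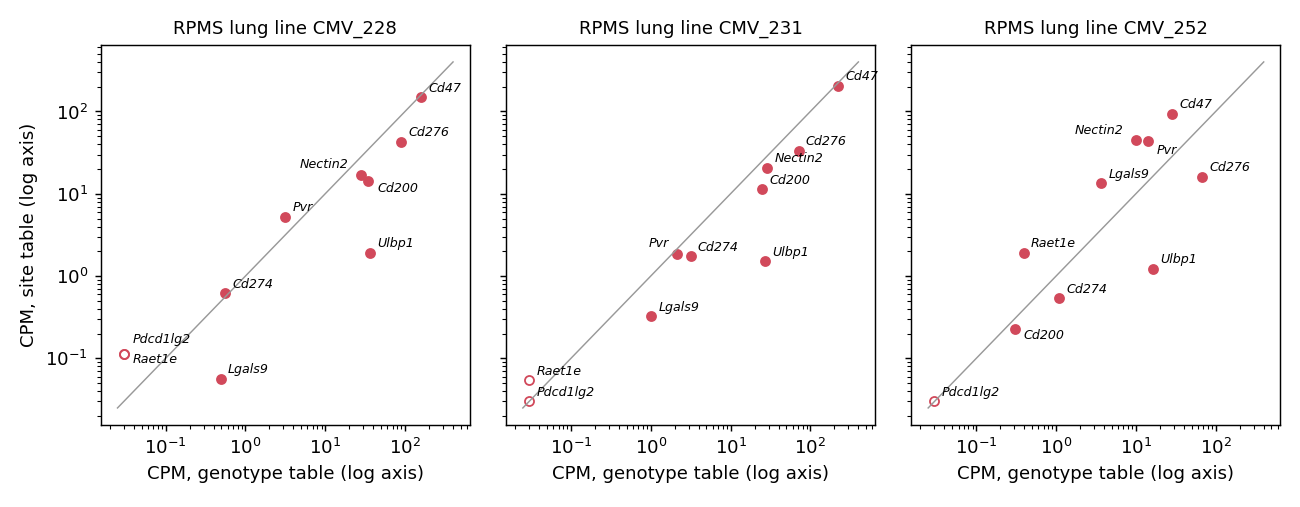
CPM of the 10 genes in the genotype table (x axis, log) against the site table (y axis, log) for the 3 RPMS lung line numbers in both tables, with a grey line of equal values and open symbols where a table has 0 counts. Ulbp1 lies below the line in every panel (36.9 against 1.92 CPM in CMV_228), and in CMV_252 Nectin2, Pvr, Lgals9 and Cd47 lie above it.

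Genes with the most similar pattern were ranked by the smaller of their Pearson correlations with a member in the 7 libraries of the genotype table and the 8 of the site table, over 12982 genes. The genotype table held both RPM and RPMS lines, so correlations there include the difference between these groups. Lines CMV_228, CMV_231 and CMV_252 were in both tables. For Cd274 the nearest was Raet1d (r = 0.983 and 0.922), an NKG2D ligand, then Adcy7 (0.893 and 0.886) and Tapbpl (0.833 and 0.858). For Pvr the nearest was Irf8 (r = 0.948 and 0.934), a transcription factor of myeloid cells. For Lgals9 it was Blvrb (0.980 and 0.960), then H2-Q4 (0.940 and 0.939). In the site table CMV_252 was far above the other lung lines for Pvr (43.3 CPM), Lgals9 (13.4 CPM) and Nectin2 (45.5 CPM). Correlations were not computed without CMV_252, so those of these genes in the site table may rest on that library. Upp2 was nearest to Cd200 (0.957 and 0.907), Abhd16a and Rnpepl1 were near Cd47 (0.954 and 0.877, and 0.880 and 0.896), and Rtca was nearest to Cd276 (0.862 and 0.858). Nectin2 was nearest to Ppib (0.861 and 0.861), and Ulbp1 to Col5a2 (0.842 and 0.795), the lowest likeness among the members ranked.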

How the data were processed

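Per the labels' protocols, a stranded kit was used on total RNA of cultured lines. The authors deposited 2 tables of unnormalized read counts per gene. Per the submitters' processing notes, HISAT2, StringTie and the build GRCm38 were used; their roles and versions, the gene models and how strand was treated in counting are not given in the sources used here. Reads of a gene and of an antisense gene on its exons therefore cannot be told apart for Cd274, Cd276 and Nectin2. The site table's 1832 records without a name (0.0569% to 0.0800% of counts) were left out. Groups, taken from the labels, were compared within each table in R 4.3.3 with edgeR 4.0.16 (default filter, TMM, two-sided quasi-likelihood test, Benjamini-Hochberg, threshold 0.05), with DESeq2 1.42.0, limma 3.58.1 and other settings as alternatives; the fit was tested on simulated data. Floors and counting intervals cover counting error only. List genes were named as up to 4 with the largest differences per list at 1 CPM or more. Gene positions and exon lengths are from a GENCODE annotation of GRCm38, and promoters from RefSeq. The members, lists and tests were chosen with earlier results of these data known.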

Additional observations from a re-analysis of the deposited data

Results flagged for a closer look

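In groups of 4 lines, values far from the rest of their group were marked. For normally distributed values chance marks about 1 in 20 groups, a rate that need not hold for CPM. A group with a single value above 0 is always marked. In all, 30 sets of a member in a group were examined. In the site table, CMV_252 was far above the other lung lines for Pvr (43.3 CPM, others 1.84 to 5.25), Nectin2 (45.5 CPM, others 16.9 to 20.7), Raet1e (1.92 CPM, others 0.0543 to 0.114) and Lgals9 (13.4 CPM, others 0.0565 to 0.572). The RPM line CMV_427 was far above the other RPM lines for Pvr (181.2 CPM, others 43.9 to 58.9). Pdcd1lg2 was marked at 0.113 CPM in the lung line CMV_228 and at 0.195 CPM in the liver line CMV_344, each from 2 counts where the other lines of the group had 0.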

How the results depend on the processing

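Each line was left out in turn, and other tests, scalings and filters were tried. In the genotype comparison the calls of Cd274 (adjusted p 2.37e-07 to 0.0432) and Lgals9 (5.73e-18 to 0.0210) were kept under all 14 alternatives, that of Pvr under 12 and that of Raet1e under 7, with Raet1e also lost without the filter on low counts (adjusted p = 0.0647). Of 5403 genes called, leaving out a line gave 2896 (without CMV_228) to 7076 (without CMV_252), and of the 4 members called 2 to 4. CMV_231 gave 3103 genes and 2 members. Over the single members there, 112 settings kept their direction and call, 9 lost the call and 5 turned: Cd47 was -0.11 with limma-voom, and leaving out a line gave log2 differences from -0.26 to 0.75 for Cd47, -0.65 to 0.0131 for Nectin2 and -0.54 to 0.29 for Ulbp1. In the site comparison DESeq2 called 52 genes, among them 1 member, Ulbp1, and 2 genes were called without the filter; edgeR called 0 whichever line was left out. There the range was -0.82 to 0.26 for Cd276, -0.18 to 0.48 for Cd47 and -1.92 to 0.71 for Pvr. The causes were not tested. Among the lists, the 14 neuroendocrine markers called became 8 without CMV_228 or CMV_231, and the 7 fibroblast markers became 3. CMV_344 has the fewest counts, which limits what can be read of its low genes. It also has the most named genes with any count, 30341 against 21658 to 24549 in the other site libraries. The cause of this was not tested, and CMV_344 is among the liver lines highest for Cd274 and Ulbp1. No paired analysis was possible because the groups compared share no line number.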
